A study of Boehmeria nivea with 10 samples.

Results

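The 40 largest assembly clusters of the ramie root transcriptome held 335 of the 40300 contigs listed in any library. Ramie (Boehmeria nivea) is a perennial nettle relative grown for its bast fibre, and the contigs were assembled de novo from its roots, with no genome behind them. An identifier that begins with CL gives its cluster before the first dot, and there were 4027 such clusters, of which 120 had at least 5 listed contigs. The 40 with the most contigs were taken, with ties going to the smaller cluster number, and every contig of a chosen cluster was kept. The choice used only whether a contig was listed, not how high it was. Cluster sizes ran from 14 contigs in CL452 and CL1138 down to 6 in CL43 and CL77.

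An assembler places contigs in 1 cluster when their sequences overlap strongly. Contigs of a cluster can be alleles of a gene, splice forms, members of a recently duplicated gene family, or fragments of any of these. A read that fits several of them is divided among them by the counting program, so the level of a single contig is an estimate that leans on its neighbours, while the summed count of the cluster does not depend on that division. Summed FPKM does where the contigs differ in length, since each count is scaled to its own contig's length. No gene name stands beside an identifier in the tables, so neither a function nor a sequence is given for any cluster.

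Late hydroponic roots were formed in water on 30-day-old seedlings, and 3 libraries were made from them. Early hydroponic roots were formed in water on 5-day-old seedlings, with 3 libraries. Terrestrial roots came from 30-day-old seedlings grown in soil, also with 3 libraries, and a single pool of all stages served the assembly only. The late and terrestrial groups share an age and differ in medium, the late and early groups share a medium and differ in age, and the early and terrestrial groups differ in both, so age and medium cannot be told apart there. Neither cultivar nor plants per library are given. Without named genes, the root tissue could not be checked against markers.

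The listed counts of a library summed to between 9499903 and 11522430, and 277 to 303 of the 335 contigs were listed per library. A contig missing from a library's table was entered as 0. Replicates differed by a chi-square per degree of freedom of 10.1 to 11.53 among early libraries and of 8.01 between terrestrial 1 and 3. The same measure was 22.5 to 36.4 among late libraries and 24.2 and 28.0 for terrestrial 2 against the other two.

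The members were longer than the assembly's contigs at the median, and fewer of their counts were whole numbers. Their median length was 1427 bases (range 200 to 6223), against 629 bases over all contigs, and 70 of the 335 were under 500 bases. Of their listed counts, 12.4% were whole numbers, against 23.6% in the other clusters and 90.9% in contigs with no cluster. In 247 members no library held a whole count, and in 9 clusters no value was whole. In all 9 libraries 215 members (64.2%) were listed, against 67.0% of all contigs, and 7 were listed in 1 library alone.

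How evenly the contigs of a cluster divided its level differed between clusters. FPKM is a count scaled to the length of the contig and the size of the library, and the share of a contig is its FPKM over the summed FPKM of its cluster in that library. In 9 of the 40 clusters the leading contig held at least 50% of the cluster's FPKM on average over the 9 libraries, and in CL215 it held over 80%. The longest contig led in 14 clusters. A single contig was on top in all 9 libraries in 11 clusters, among them CL452, CL215, CL486, CL1032, CL112, CL985 and CL3991.

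**Figure D1:**
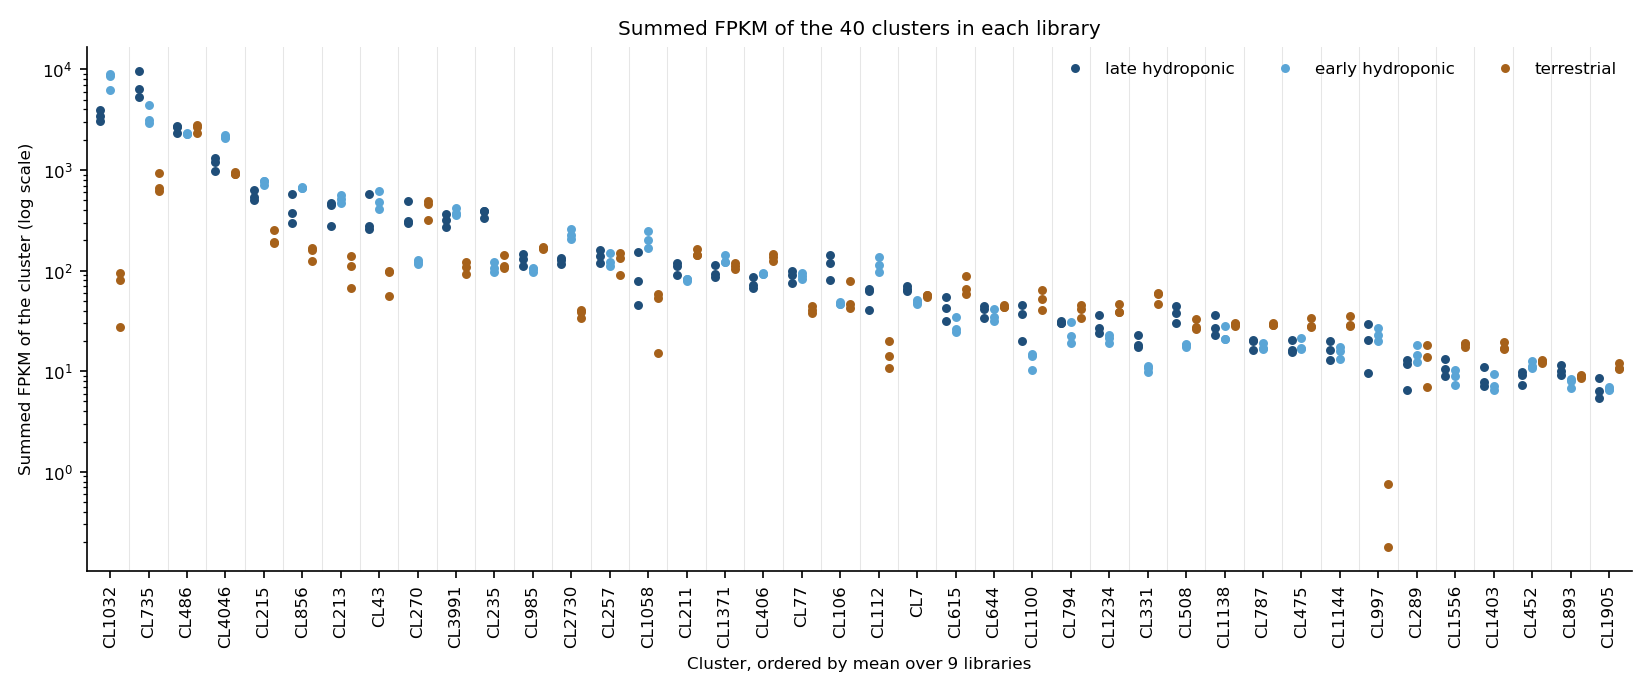
Summed FPKM of each of the 40 clusters (vertical axis, log scale) in every library, with clusters ordered by their mean over 9 libraries and 1 point per library. CL1032 lies between 3066 and 8971 FPKM in all 6 hydroponic libraries and between 27.6 and 95.1 in the 3 terrestrial ones, and the point of CL997 in terrestrial 2, where no contig was listed, cannot be drawn on a log axis.

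The 40 clusters took a larger part of the counts in hydroponic libraries than in terrestrial ones. They held 2.23, 2.05 and 2.05% of the listed counts in late libraries, 2.55, 2.60 and 2.27% in early libraries, and 0.977, 0.886 and 1.03% in terrestrial libraries. Both hydroponic groups lay wholly above the terrestrial one, and every early library lay above every late library. The differences were 1.14 percentage points for late minus terrestrial, -0.36 for late minus early and 1.51 for early minus terrestrial. Each gave p = 0.1 in an exact two-sided permutation test, the smallest p that 3 against 3 libraries allow. Most of the gap came from a pair of clusters: without CL1032 and CL735 the shares were 1.11, 1.21 and 1.22% in late, 1.41, 1.40 and 1.41% in early and 0.918, 0.828 and 0.944% in terrestrial libraries. The direction was not particular to the 40. All other clusters together held 28.8 to 29.9% of the listed counts in hydroponic libraries, against 26.8 to 27.1% in terrestrial ones. In these whole-root samples, more cells of a type and more RNA per cell cannot be told apart.

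CL1032, with 10 contigs, had the highest summed level over the 9 libraries. Its summed FPKM was 3066, 3471 and 3949 in late libraries, 8971, 8605 and 6266 in early libraries, and 80.7, 27.6 and 95.1 in terrestrial libraries. The groups did not overlap, and the early libraries were above all late ones. By edgeR's quasi-likelihood test on summed counts, Benjamini-Hochberg adjusted, the cluster was higher in late than in terrestrial roots (log2 change 5.67 ± 0.44 SE, adjusted p = 1.9e-05) and higher in early than in terrestrial roots (7.04 ± 0.47, adjusted p = 5.24e-06). It was lower in late than in early roots (-1.36 ± 0.37, adjusted p = 0.0318), a call that was lost without any single late 1, late 2, early 1, early 2 or early 3 library, with the log2 change then between -1.53 and -1.27.

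The leading contig of CL1032 kept close to its share while the sum differed this much. That contig, Contig8 (1075 bases), held 35.2 ± 0.7% of the cluster's FPKM in late, 37.2 ± 0.5% in early and 36.9 ± 0.4% in terrestrial libraries (SD, n = 3 each). Contig2 held 16.2, 18.1 and 16.4% and Contig7 23.9, 23.6 and 16.4% on average in late, early and terrestrial libraries. All 10 contigs of the cluster were called higher in late than in terrestrial roots, and all 10 higher in early than in terrestrial roots. Contig6 had 1750 counts over the late libraries against 9 over the terrestrial ones, a ratio of 208 with a 95% exact binomial interval of 109 to 456 that covers counting error only. Contig10, 1 of the few members whose counts were whole in all 9 libraries, had 425, 537 and 768 counts in late, 1278, 1106 and 952 in early, and 8, 3 and 11 in terrestrial libraries. Its groups did not overlap either. The log2 change of Contig10 was 6.46 in late and 7.34 in early minus terrestrial. In late minus early it was -0.88 and not called (adjusted p = 0.0545, edgeR's quasi-likelihood test). The largest share change was that of Contig9, which held 6.1% in late, 4.9% in early and 17.0% in terrestrial libraries. Contig usage, a test explained below with its background, was called against terrestrial roots (adjusted p = 0.0222 in late and 0.0147 in early, edgeR's diffSpliceDGE), but not in 6 of the 9 fits without a library in late minus terrestrial, nor without early 1, early 2 or terrestrial 1 in early minus terrestrial.

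CL735, with 7 contigs, showed both a large rise of the sum and a change of makeup. Its summed FPKM was 9679, 6452 and 5340 in late libraries, 3163, 4406 and 2936 in early libraries, and 625, 668 and 941 in terrestrial libraries. The late libraries were all above the early ones and these all above the terrestrial ones. The log2 change of the summed count was 3.36 ± 0.31 for late minus terrestrial, 1.07 ± 0.28 for late minus early and 2.29 ± 0.29 for early minus terrestrial (edgeR's quasi-likelihood test, Benjamini-Hochberg adjusted, adjusted p = 3.3e-05, 0.0286 and 0.000122). The late minus early call was lost without late 1, late 2, early 1 or early 3, with values from 0.74 to 1.13.

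Different contigs of CL735 led in different roots. Contig7 (1062 bases) had 3685, 1650 and 1726 FPKM in late libraries, 410, 798 and 534 in early libraries, and 196, 239 and 357 in terrestrial libraries. Contig4 (1066 bases) had 948, 1169 and 734 FPKM in late, 862, 1046 and 705 in early, and 48.0, 36.1 and 57.4 in terrestrial libraries. Contig7 was thus on top in every late and terrestrial library and Contig4 in every early library, and Contig4 overlapped between the hydroponic stages (late minus early log2 change -0.03 ± 0.22, adjusted p = 0.954 by edgeR's quasi-likelihood test). The share of Contig7 was 32.0 ± 6.2% in late, 16.4 ± 3.0% in early and 35.0 ± 3.4% in terrestrial libraries (SD, n = 3 each), and that of Contig4 was 13.9 ± 4.2, 25.0 ± 2.0 and 6.4 ± 1.2%.

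**Figure D2:**
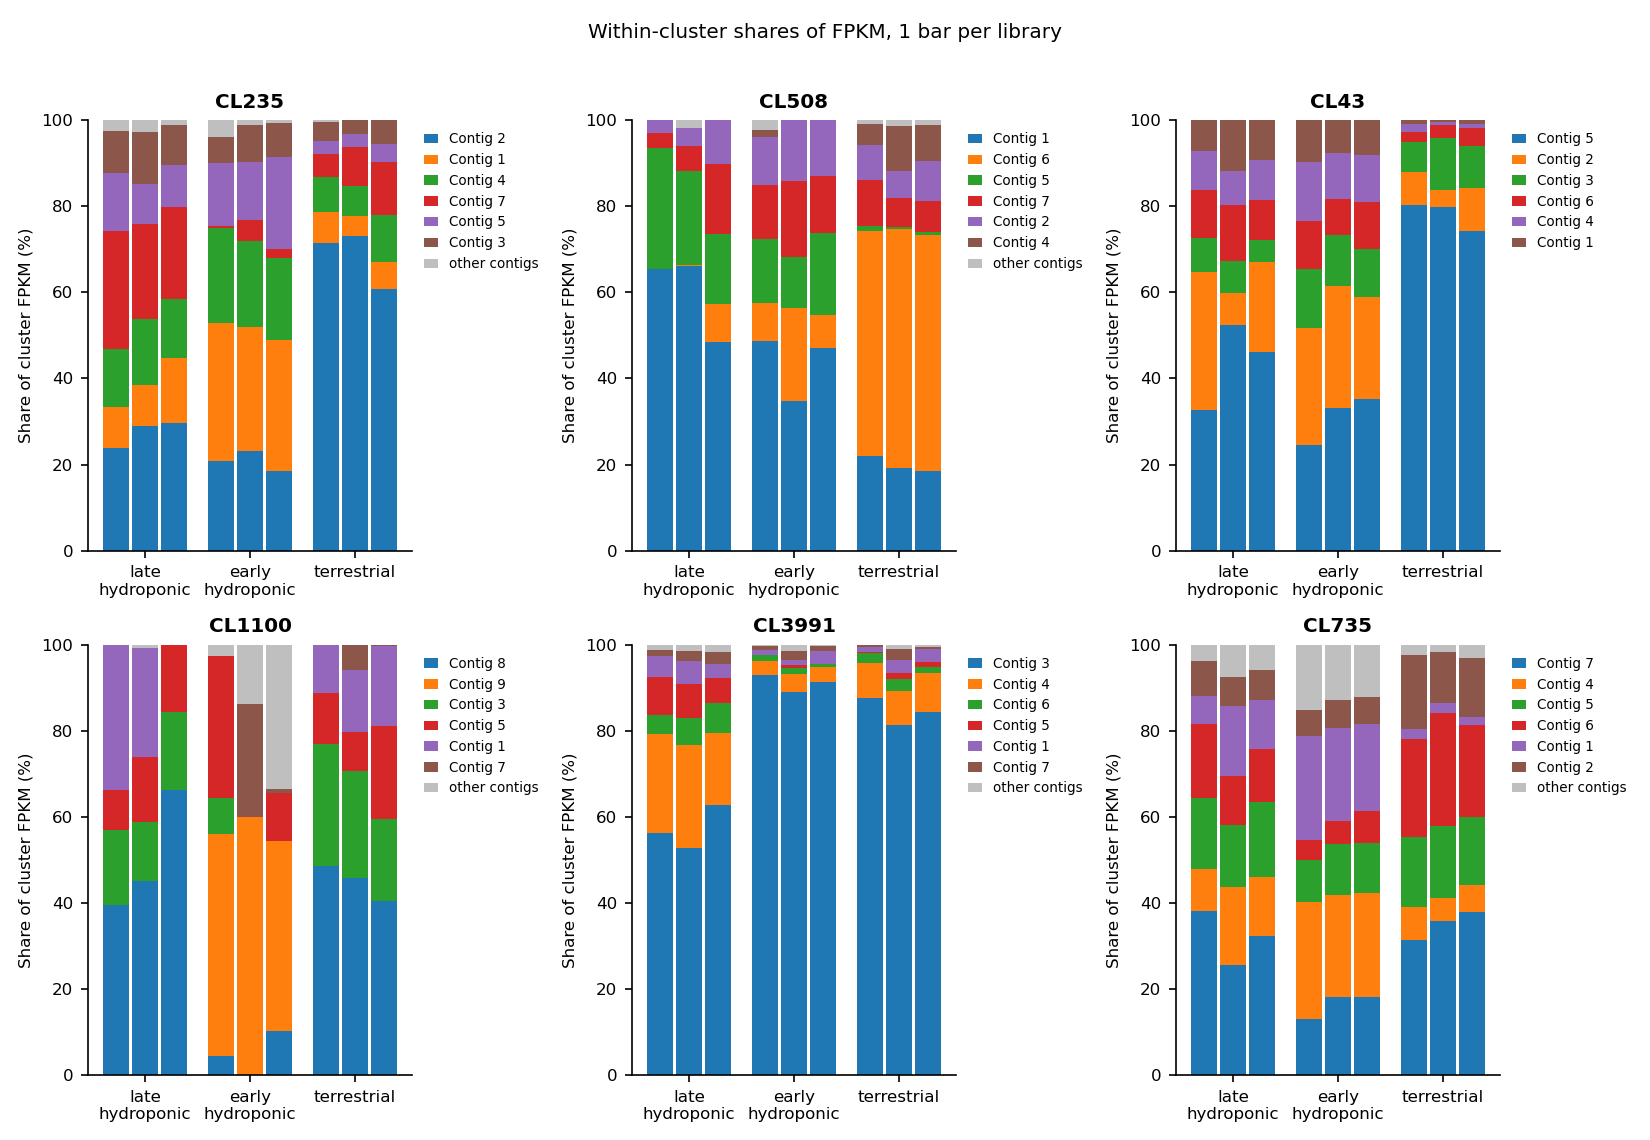
Share of a cluster's summed FPKM held by each of its contigs (vertical axis, percent) in 6 clusters, with 1 stacked bar per library and groups from left to right as late hydroponic, early hydroponic and terrestrial. In CL235 each bar differs more from any bar of another group than from those of its own, and in CL1100 Contig9 fills 51.9% of the early bars on average and is absent from the others.

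CL997, with 8 contigs, was close to absent from soil. Its summed FPKM was 9.68, 20.3 and 29.2 in late, 20.2, 27.0 and 22.9 in early, and 0.18, 0 and 0.76 in terrestrial libraries. No contig of it was listed in terrestrial 2, so its shares are not defined there and comparisons of shares with terrestrial roots cover 39 clusters. The summed count was higher in late (log2 change 5.72 ± 0.65, adjusted p = 0.00012) and in early roots (6.14 ± 0.65, adjusted p = 5.08e-05) than in terrestrial roots by edgeR's quasi-likelihood test, Benjamini-Hochberg adjusted. Without terrestrial 3 the changes were 6.99 and 7.47. Between the hydroponic stages the change was -0.42 ± 0.43 (adjusted p = 0.526).

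Across the 40 clusters, sums moved in both directions. In late against terrestrial roots 17 clusters were higher and 12 lower on their summed counts, or 42.5% and 30.0%, where 31.5% and 27.8% of all 22970 clusters and single contigs tested were called (72.5% in either direction, against 59.3%). In late against early roots 7 were higher and 10 lower, against a background of 10.7% and 8.51% (42.5% in either direction, against 19.2%). In early against terrestrial roots 15 were higher and 15 lower, against a background of 32.6% and 34.6% (75.0% in either direction, against 67.2%). The median log2 change over the 40 was 0.09, -0.03 and 0.06 in the 3 comparisons, against 0.02, 0.04 and -0.09 over all features. The late minus early split turned with scaling: with library totals alone 8 were higher and 5 lower, and on log2(FPKM + 1) 8 were higher and 4 lower. Library totals also moved the median change of all contigs tested to 0.18 in late minus early, against 0.04 with TMM, and to -0.32 in early minus terrestrial, against -0.09.

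Against terrestrial roots, 14 clusters were higher and 10 lower at both hydroponic stages (35.0% and 25.0%), beside 25.9% and 24.3% of all clusters and single contigs tested; both comparisons share the terrestrial libraries. Besides CL1032, CL735 and CL997, the higher ones included CL112, CL213, CL215, CL2730, CL3991 and CL43. CL112 had 40.7, 66.2 and 62.4 summed FPKM in late, 95.8, 114 and 136 in early, and 14.3, 10.7 and 19.8 in terrestrial libraries, with no overlap between any of the groups. It was lower in late than in early roots (log2 change -1.24 ± 0.25, adjusted p = 0.0109 by edgeR's quasi-likelihood test, Benjamini-Hochberg adjusted). Its leading Contig5 held 63.8, 59.7 and 80.3% in late, early and terrestrial libraries on average, and its contig usage had an adjusted p of 0.233 in late and 0.0888 in early against terrestrial roots (diffSpliceDGE).

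The lower clusters included CL331 and CL1403. CL331 had 22.8, 17.5 and 18.2 summed FPKM in late, 9.90, 11.2 and 10.8 in early, and 58.3, 60.03 and 46.1 in terrestrial libraries. Terrestrial libraries were the highest and early ones the lowest, with no overlap, and the log2 change was -1.40 ± 0.16 in late and -2.07 ± 0.17 in early against terrestrial roots (adjusted p = 0.000112 and 1.06e-05, edgeR's quasi-likelihood test, Benjamini-Hochberg adjusted). Usage was called in no comparison, and the mean share of Contig1 was 17.0, 18.9 and 19.6% and that of Contig3 16.2, 16.3 and 15.7% in late, early and terrestrial libraries. Contig7 led in every late and terrestrial library and in no early one. Its mean share moved by 8.86 points in late minus early and -8.93 points in early minus terrestrial, with overlap between libraries in both. CL1403 had 7.82, 10.96 and 7.13 FPKM in late, 6.46, 7.12 and 9.29 in early, and 19.7, 16.7 and 17.2 in terrestrial libraries, and its log2 change was -0.96 at both stages against terrestrial roots. CL1138, CL289, CL486, CL893 and CL644 were called on their sum in none of the 3 comparisons.

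**Figure D3:**
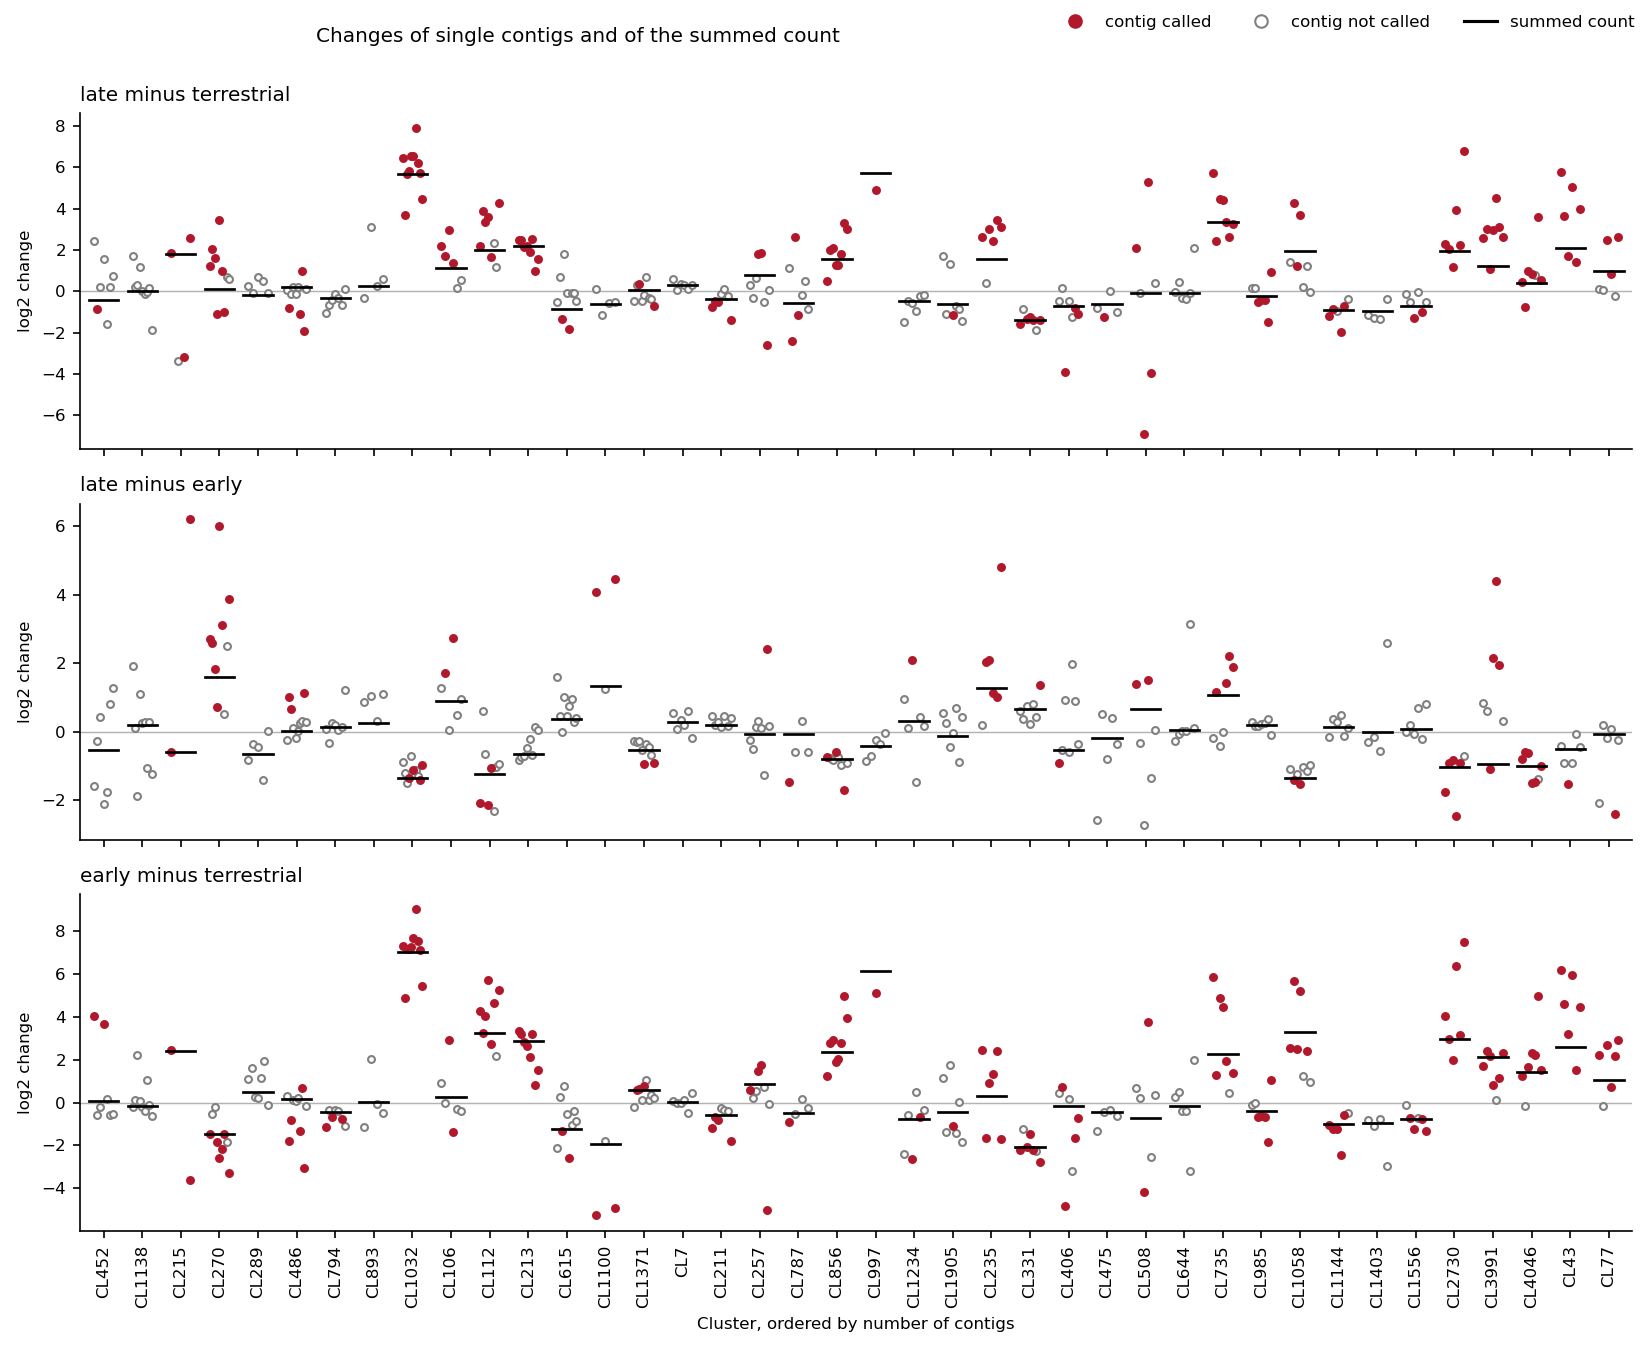
Fitted log2 change of each tested contig (points, filled where called) and of the summed count (black bar) in the 40 clusters for the 3 comparisons, leaving out contigs with no count in 1 of the groups. Contigs of CL1032 and CL213 lie on 1 side of 0 against terrestrial roots, while those of CL508 and CL215 lie on both sides in both comparisons with terrestrial roots.

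Of the 335 contigs, 273 passed the filter on low counts and 62 did not. In late against terrestrial roots 99 were higher and 40 lower, which is 36.3% and 14.7% of the 273, beside 28.7% and 24.2% of all 26747 contigs tested. In late against early roots 35 were higher and 32 lower, beside 8.37% and 6.3%, and in early against terrestrial roots 98 were higher and 58 lower, beside 30.1% and 31.0%. In either direction the called shares were 50.9, 24.5 and 57.1%, beside 52.9, 14.7 and 61.1%. With library totals alone the late minus early split was 42 higher and 24 lower. The late minus early counts also moved with single libraries: without late 1, late 2 or any single early library 19 to 23 contigs were higher and 12 to 18 lower, and without late 3 the counts were 33 and 54. The median change was 0.28, 0.04 and 0.13, against 0.02, 0.04 and -0.09 over all contigs, and 0.28, 0.04 and 0.14 with contigs at 0 in a group set to the fold that a floor of 3 counts over the group allows. Both directions occurred within 1 cluster in 9 clusters for late minus terrestrial, 4 for late minus early and 9 for early minus terrestrial, or 22.5% of the 40 in each comparison against terrestrial roots, beside 3.12, 0.355 and 4.57% of all 2820 clusters with at least 2 tested contigs. Larger clusters have more chances of this, and among the 76 clusters of at least 5 contigs that were not chosen the shares were 6.58, 1.32 and 13.2%.

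Such splits within a cluster were tested as contig usage, that is whether the tested contigs of a cluster changed by different folds (edgeR's diffSpliceDGE F test, Benjamini-Hochberg adjustment over 2820 clusters). Such unequal change was called in 19 of the 40 clusters (47.5%) for late minus terrestrial, in 11 (27.5%) for late minus early and in 23 (57.5%) for early minus terrestrial. Over all clusters tested the called shares were 13.3, 5.04 and 20.7%. Against the rest of their cluster, 44, 18 and 52 of the 273 contigs were called singly, or 16.1, 6.59 and 19.0%, beside 4.14, 1.37 and 7.07% of all contigs in such clusters. Most clusters of the assembly had only 2 tested contigs. Among the 76 clusters of at least 5 contigs that were not chosen, the called shares were 27.6, 14.5 and 39.5%, and among those of 6 contigs that the tie rule left out 20.8, 12.5 and 37.5%. The test treats contigs as separate although they share reads, and the part of read sharing in these calls was not tested. With contigs whole in fewer than 5 libraries left out, only 5 of the 40 clusters could be tested, and 0, 1 and 0 were called where 2, 2 and 1 of these 5 were called with all contigs, with the same counts at an unadjusted p under 0.05 and 0 called in each comparison by the Simes test; the call was CL3991 in late minus early (adjusted p = 0.0123).

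In all 3 comparisons 9 clusters were called for usage, namely CL215, CL270, CL486, CL106, CL787, CL235, CL735, CL2730 and CL77, which is 22.5% beside 1.74% of all clusters tested, and 16 were called in none. Clusters of like size were not compared on calls in all 3 comparisons. Of these 9, CL215, CL235 and CL735 held every call in every alternative in which they could be tested apart from that on whole counts, and the others each lost a call in at least 1. Over all 40 clusters, 15 of 19, 7 of 11 and 16 of 23 calls held in this way, and CL270, CL475 and CL1144 in early minus terrestrial, CL1032 against terrestrial roots, and CL2730 and CL486 in late minus early were among those that did not. A contig's mean share moved by at least 10 percentage points in 23 of 39, 15 of 40 and 23 of 39 clusters, or 59.0, 37.5 and 59.0%, beside 41.9, 33.5 and 45.0% of all clusters. The median over clusters of this largest move was 11.4, 8.195 and 13.2 points, beside 8.11, 6.25 and 8.61 points over all clusters. Among the 76 clusters of at least 5 contigs that were not chosen it was larger, at 12.74, 9.18 and 14.45 points. Clusters of like size were not compared at the threshold of 10 points.

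**Figure D4:**
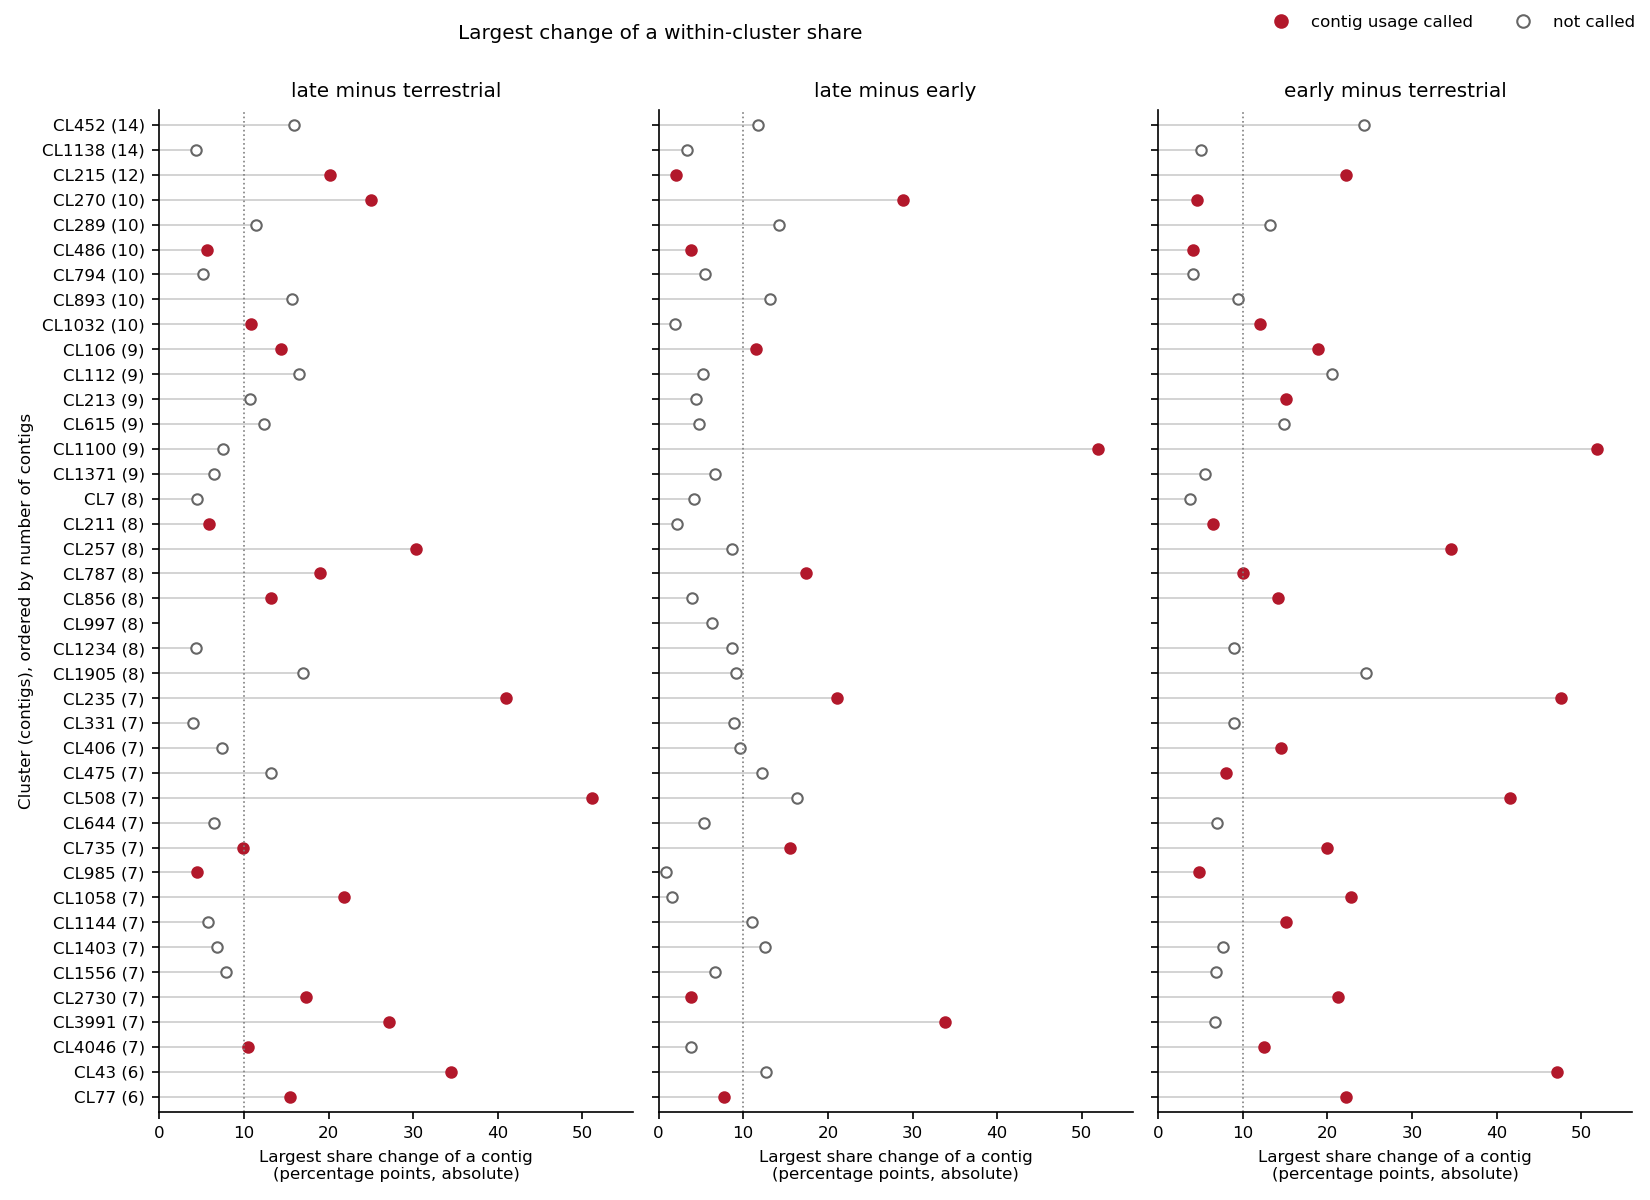
Largest absolute change of a contig's mean share (horizontal axis, percentage points) in each of the 40 clusters for the 3 comparisons, filled where contig usage was called. The largest are those of CL508 in late minus terrestrial (51.2 points) and CL1100 in late minus early and early minus terrestrial (51.9 points each), and the dotted line marks 10 points.

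In CL235 the contig that led in terrestrial roots held less of the cluster in water. The sum was 393, 387 and 331 in late libraries, 97.4, 106 and 122 in early libraries, and 105, 142 and 112 in terrestrial libraries. Late libraries stood above all others, and early and terrestrial libraries overlapped: the early minus terrestrial log2 change of the summed count was 0.29 ± 0.14 (adjusted p = 0.0991 by edgeR's quasi-likelihood test, Benjamini-Hochberg adjusted; 0.45 and called without terrestrial 2; -0.14 on log2(FPKM + 1)). Contig2 (985 bases) had 94.1, 112 and 98.3 FPKM in late, 20.4, 24.4 and 22.6 in early, and 75.3, 104 and 68.0 in terrestrial libraries. It therefore made up 27.5 ± 3.1% of the cluster in late, 20.8 ± 2.3% in early and 68.5 ± 6.8% in terrestrial libraries (SD, n = 3 each).

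Contig1 and Contig7 of CL235 followed other patterns. Contig1 (1304 bases) had 36.9, 36.8 and 50.01 FPKM in late, 31.1, 30.5 and 37.1 in early, and 7.43, 6.59 and 7.21 in terrestrial libraries, and held 11.3, 30.4 and 6.1% of the cluster on average. It was the leading contig in every early library, where Contig2 led in every terrestrial one. The short Contig7 (201 bases) had 108, 85.6 and 71.0 FPKM in late libraries, 0.62, 5.18 and 2.58 in early libraries, and 5.67, 13.0 and 13.8 in terrestrial libraries, with no overlap between groups. Usage was called in all 3 comparisons (adjusted p = 2.36e-09, 3.42e-07 and 3.7e-13, edgeR's diffSpliceDGE). The effective number of contigs, which is the inverse of the summed squared shares, averaged 5.26 in late, 4.69 in early and 2.06 in terrestrial libraries, with an exact permutation p of 0.1 against terrestrial roots at each stage, the smallest possible. On shares of counts, in which short contigs weigh less, the late minus early change of Contig7 was 4.27 points in place of 21.1.

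CL508 had the largest share change between late and terrestrial roots, and its sum was not called there. The sum was 44.3, 38.3 and 30.2 in late libraries, 18.5, 17.3 and 18.0 in early libraries, and 27.6, 26.0 and 32.8 in terrestrial libraries. The log2 change of the summed count was -0.08 ± 0.12 in late minus terrestrial (adjusted p = 0.613 by edgeR's quasi-likelihood test), and 0.36 on log2(FPKM + 1), so its direction depends on the scale. It was 0.66 ± 0.12 in late minus early (adjusted p = 0.00777) and -0.73 ± 0.12 in early minus terrestrial roots (adjusted p = 0.000625), by the same test.

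Within CL508, Contig6 (2409 bases) had 0.02, 0.13 and 2.66 FPKM in late libraries, 1.60, 3.73 and 1.39 in early libraries, and 14.4, 14.5 and 17.9 in terrestrial libraries. Its share was 3.1 ± 5.0% in late, 12.6 ± 7.7% in early and 54.2 ± 1.7% in terrestrial libraries (SD, n = 3 each). The log2 change of Contig6 in late minus terrestrial was -3.92 ± 1.10 (adjusted p = 0.0162, edgeR's quasi-likelihood test, Benjamini-Hochberg adjusted) and -7.78 without late 3, the late library in which it was highest. Contig1 (757 bases), whose counts were whole in all 9 libraries, had 29.0, 25.3 and 14.6 FPKM in late, 9.03, 6.03 and 8.48 in early, and 6.06, 4.97 and 6.07 in terrestrial libraries. Its late libraries lay above all others, and it was higher in late than in terrestrial roots (log2 change 2.10 ± 0.28, adjusted p = 0.000396) and than in early roots (1.40 ± 0.27, adjusted p = 0.013) by that test. Contig1 held 59.96 ± 9.99, 43.6 ± 7.6 and 19.9 ± 1.9% of the cluster in late, early and terrestrial libraries, and led in every hydroponic library where Contig6 led in every terrestrial one. Usage was called against terrestrial roots at both stages (adjusted p = 8.23e-08 in late and 2.13e-05 in early) and not between the stages (adjusted p = 0.104; called without late 3).

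In CL43 every contig was higher in hydroponic roots, but by very different folds. The cluster had 276, 258 and 583 summed FPKM in late, 405, 619 and 484 in early, and 96.8, 55.6 and 99.7 in terrestrial libraries, with late 3 standing apart from the other late libraries. The sum was higher than in terrestrial roots by a log2 change of 2.10 ± 0.36 in late and 2.61 ± 0.37 in early roots (adjusted p = 0.00121 and 0.000286, edgeR's quasi-likelihood test). Contig5 (874 bases) had 89.9, 135 and 269 FPKM in late, 99.4, 205 and 171 in early, and 77.7, 44.4 and 74.0 in terrestrial libraries, and held 43.7 ± 10.1, 31.0 ± 5.7 and 78.1 ± 3.4% of the cluster (SD, n = 3 each). Contig2 (509 bases) had 88.6, 19.3 and 121 FPKM in late, 110, 176 and 114 in early, and 7.51, 2.14 and 10.04 in terrestrial libraries. Contig5 led in every terrestrial library, and Contig2 held 20.1 ± 12.3% in late, 26.4 ± 2.5% in early and 7.2 ± 3.1% in terrestrial libraries, with late 2 low among the late ones. All 6 contigs were called higher at both hydroponic stages than in terrestrial roots, and usage was called in both (adjusted p = 1.98e-05 in late and 2.06e-06 in early, diffSpliceDGE). The effective number of contigs averaged 3.59 in late, 4.68 in early and 1.60 in terrestrial libraries.

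CL1100 had a contig in early roots that was listed in no other library. Contig9 (1264 bases) had 5.25, 8.52 and 6.55 FPKM in early libraries, or 76.3, 123 and 94.8 counts, and was listed in none of the 3 late and none of the 3 terrestrial libraries. Against a floor of 3 counts over the group, it was at least 84.6-fold lower in late than in early roots, and at least 90.5-fold higher in early than in terrestrial roots. The zeros are inferred from its absence in those tables. None of its counts was whole, so these folds hold only for the division of reads behind the deposited counts. Contig8 (2092 bases) had 14.6, 20.5 and 13.1 FPKM in late, 0.44, 0 and 1.51 in early, and 25.6, 29.2 and 16.5 in terrestrial libraries, which sets both of the older root groups apart from the early one.

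Contig8 held 50.3 ± 14.0% of CL1100 in late, 4.8 ± 5.1% in early and 45.0 ± 4.1% in terrestrial libraries, and Contig9 held 51.9 ± 7.9% in early libraries (SD, n = 3 each). The sum was 36.9, 45.4 and 19.8 FPKM in late, 10.2, 14.2 and 14.8 in early, and 52.7, 63.7 and 40.7 in terrestrial libraries. Its log2 change was 1.33 ± 0.25 in late minus early (adjusted p = 0.00774), -1.95 ± 0.25 in early minus terrestrial (adjusted p = 0.000137) and -0.61 ± 0.24 in late minus terrestrial (adjusted p = 0.0504) by edgeR's quasi-likelihood test, Benjamini-Hochberg adjusted. Usage was called in late minus early (adjusted p = 0.000318) and early minus terrestrial (adjusted p = 3.93e-05) and had an adjusted p of 0.974 in late minus terrestrial. Contig3 (1260 bases) had 201 counts over the late, 12 over the early and 513 over the terrestrial libraries, with all early counts in early 1. Without that library its fitted late minus early change was 9.17 in place of 4.10. Contig1 (452 bases) had 5.96, 9.17 and 7.57 FPKM in terrestrial libraries and was listed in no early library. Against the same floor it was at least 37.0-fold lower in early than in terrestrial roots. None of its counts was whole, so this fold too holds only for the division of reads behind the deposited counts.

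In CL3991 the late roots were the ones set apart by their shares, while the sum was lowest in terrestrial roots. Summed FPKM stood at 269, 361 and 318 in late, 355, 370 and 418 in early, and 108, 91.7 and 123 in terrestrial libraries. Against terrestrial roots the summed count had a log2 change of 1.21 ± 0.15 in late and 2.15 ± 0.15 in early roots. In late minus early it was -0.95 ± 0.15 (adjusted p = 0.000149, 5.81e-06 and 0.00371 in this order, edgeR's quasi-likelihood test). Contig3 (1789 bases) had 151, 191 and 200 FPKM in late, 330, 329 and 382 in early, and 94.9, 74.5 and 104 in terrestrial libraries, and held 57.2 ± 5.1, 91.1 ± 2.0 and 84.4 ± 3.2% of the cluster (SD, n = 3 each). Short contigs filled the gap in late libraries: Contig4 (227 bases) had 61.9, 86.5 and 52.8 FPKM in late, 11.1, 15.3 and 14.4 in early, and 8.60, 7.28 and 11.3 in terrestrial libraries. Contig5 (244 bases) had 150 counts over the late libraries against 7 over the early ones, a ratio of 24.8 with a 95% exact binomial interval of 11.8 to 62.8 for counting error alone; without early 2 its fitted log2 change was 6.41 in place of 4.42. Usage was called in late minus terrestrial (adjusted p = 5.62e-06) and late minus early (adjusted p = 1.18e-09) and not in early minus terrestrial (adjusted p = 0.111; called without early 2), by diffSpliceDGE. On shares of counts the late minus early change of Contig3 was -9.02 points in place of -33.9.

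Short contigs also weighed in CL215 and CL270. CL215, with 12 contigs, had 507, 542 and 630 summed FPKM in late, 782, 714 and 773 in early, and 194, 190 and 252 in terrestrial libraries, and its sum was higher than in terrestrial roots at both stages (log2 change 1.80 ± 0.16 in late and 2.39 ± 0.16 in early, adjusted p = 2.98e-05 and 4.91e-06, edgeR's quasi-likelihood test). Contig1 (2285 bases) held 97.8 ± 0.5% of it in late, 99.8 ± 0.1% in early and 77.6 ± 8.8% in terrestrial libraries (SD, n = 3 each). The rest in terrestrial libraries lay mostly in Contig5 (268 bases) and Contig2 (285 bases), which had 13.4, 27.4 and 25.3 and 9.16, 25.1 and 27.2 FPKM there and were listed in no early library. In late libraries Contig5 had 0, 0.54 and 6.11 FPKM, and its fitted late minus terrestrial change of -3.17 was -6.31 without late 3 and no longer called without late 1 or 2 or any single terrestrial library. With contigs under 500 bases left out, the late minus terrestrial change of the share of Contig1 was -0.30 points in place of 20.1, and on shares of counts it was 2.62.

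CL270, with 10 contigs, was lowest in early roots. Summed FPKM stood at 310, 489 and 299 in late, 115, 126 and 122 in early, and 494, 317 and 460 in terrestrial libraries. Early libraries lay below all others, and the log2 change of the summed count was 1.59 ± 0.14 in late minus early (adjusted p = 0.000544) and -1.48 ± 0.14 in early minus terrestrial (adjusted p = 2.21e-05), by edgeR's quasi-likelihood test, Benjamini-Hochberg adjusted. In late minus terrestrial it was 0.11 ± 0.14 (adjusted p = 0.519), and -0.02 without terrestrial 2. Contig7 (228 bases) held 35.0 ± 9.3% in late, 63.9 ± 2.8% in early and 59.99 ± 3.1% in terrestrial libraries (SD, n = 3 each). Contig5 (271 bases) had 64.2, 238 and 24.6 FPKM in late, 1.81, 0.36 and 2.18 in early, and 14.1, 8.32 and 9.06 in terrestrial libraries, and it held 20.7, 48.6 and 8.23% of the cluster in the 3 late libraries, with late 2 far above the others.

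CL486 had a sum that no comparison called and contigs that changed unequally. Its summed FPKM was 2745, 2661 and 2356 in late, 2321, 2278 and 2259 in early, and 2662, 2326 and 2811 in terrestrial libraries. The log2 changes of the sum were 0.20 ± 0.13, 0.02 ± 0.13 and 0.18 ± 0.13 (adjusted p = 0.224, 0.934 and 0.258, edgeR's quasi-likelihood test), and the signs of the changes against terrestrial roots were negative on log2(FPKM + 1). Contig7 (2115 bases) had 324, 339 and 267 FPKM in late, 229, 215 and 236 in early, and 161, 142 and 194 in terrestrial libraries, or 12.0 ± 0.7, 9.9 ± 0.5 and 6.4 ± 0.5% of the cluster (SD, n = 3 each). Contig8 (289 bases) had 24.7, 30.5 and 21.2 FPKM in late, 10.9, 8.63 and 11.7 in early, and 65.1, 126 and 117 in terrestrial libraries. Its log2 change was -1.93 ± 0.27 in late and -3.05 ± 0.29 in early minus terrestrial (adjusted p = 0.000553 and 5.03e-05, edgeR's quasi-likelihood test). Usage was called in all 3 comparisons (adjusted p = 3.54e-15, 2.01e-05 and 6.88e-22, diffSpliceDGE; by the Simes test the late minus early call was lost, with adjusted p = 0.731), though no contig's share moved by more than 5.62 points.

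Another contig came out on top in every library of each group in 5, 5 and 7 clusters for late minus terrestrial, late minus early and early minus terrestrial, or 12.8, 12.5 and 17.9%, beside 3.32, 1.97 and 5.93% of all clusters. Clusters of like size were not compared on this count. CL235, CL508, CL735 and CL1100 are described above. In CL213 Contig2 (1751 bases) led in all late and early libraries, with 51.8, 106 and 92.7 FPKM in late and 133, 141 and 109 in early, where it had 16.7, 9.29 and 22.5 in terrestrial libraries. Contig7 of CL213 (643 bases) led there, with 41.9, 41.4 and 42.2 FPKM in late, 36.6, 31.3 and 35.7 in early and 22.9, 16.0 and 29.3 in terrestrial libraries. All 8 tested contigs of CL213 were higher than in terrestrial roots at both stages, so the lead passed between contigs that all rose. Usage of CL213 was called in early minus terrestrial (adjusted p = 0.000306, diffSpliceDGE). It was not called in late minus terrestrial (adjusted p = 0.189), with all libraries or in any alternative.

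In CL2730 Contig3 (1396 bases) led in hydroponic libraries with 49.5, 44.5 and 44.8 FPKM in late and 80.2, 87.0 and 73.2 in early, against 14.2, 9.80 and 12.3 in terrestrial libraries. Contig4 (958 bases) led in soil, with 45.1, 32.4 and 35.2 FPKM in late, 57.5, 72.2 and 51.4 in early and 18.1, 18.0 and 17.7 in terrestrial libraries. The share of Contig4 was 30.0 ± 3.6, 26.2 ± 1.6 and 47.4 ± 4.8% in late, early and terrestrial libraries (SD, n = 3 each). Contig7 of CL2730 (1771 bases), with whole counts only, had 34, 75 and 123 counts in late, 123, 159 and 120 in early, and 1, 0 and 1 in terrestrial libraries.

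CL106 differed in its leader between late and terrestrial roots. Contig2 (724 bases, whole counts throughout) had 62.0, 43.3 and 23.0 FPKM in late, 11.7, 12.8 and 11.1 in early, and 7.94, 20.8 and 13.0 in terrestrial libraries, and led in late ones. Contig6 (1864 bases) had 18.2, 20.9 and 16.8 FPKM in late, 11.6, 13.0 and 11.54 in early, and 14.8, 24.1 and 13.4 in terrestrial libraries, overlapped between late and terrestrial, and led in the terrestrial ones. Contig4 (1814 bases) had 13.4, 12.9 and 9.02 FPKM in late, 10.5, 9.96 and 10.6 in early, and 1.29, 1.74 and 1.67 in terrestrial libraries, and it was higher at both stages than in soil (log2 change 2.99 ± 0.20 and 2.95 ± 0.20, adjusted p = 2.81e-05 and 1.49e-05, edgeR's quasi-likelihood test). Usage of CL106 was called in all 3 comparisons, and in late minus early the call was lost without early 1 or early 3 (adjusted p up to 0.0593, diffSpliceDGE).

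CL1371, CL406 and CL475 also changed leader. In CL1371 Contig2 led in all late and Contig5 in all early libraries, with mean shares of 26.6, 22.3 and 20.1% for Contig2 and 19.5, 26.2 and 20.6% for Contig5 in late, early and terrestrial libraries. In CL406 Contig7 held 31.5, 29.4 and 38.9% and Contig1 26.0, 35.6 and 21.1%, with Contig1 on top in early libraries. In CL475 Contig6 held 34.3, 23.0 and 21.2% and Contig5 25.3, 37.6 and 36.0%, with Contig6 on top in late libraries. Usage was called in early minus terrestrial for CL406 (adjusted p = 0.000329) and for CL475 (adjusted p = 0.0385, diffSpliceDGE, lost in 7 of the 9 fits without a library), and in no comparison with all libraries for CL1371. Without late 3, CL406 was also called in late minus terrestrial (adjusted p = 0.00412) and late minus early (adjusted p = 0.0143), and without terrestrial 2, CL1371 was called in late minus terrestrial (adjusted p = 0.0386), by diffSpliceDGE. Without both, CL1371 was called in late (adjusted p = 0.0101) and early (adjusted p = 0.0464) minus terrestrial.

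In some clusters no share moved far. CL7 had 62.4, 65.8 and 69.5 summed FPKM in late, 49.1, 46.0 and 50.7 in early, and 56.6, 54.9 and 57.7 in terrestrial libraries, and the groups did not overlap. Its leading contigs Contig1 and Contig3 held 25.3, 21.4 and 20.8% and 23.1, 22.4 and 22.6% of it in late, early and terrestrial libraries, and no usage test was called. Its sum was called in late minus terrestrial roots (log2 change 0.31 ± 0.09, adjusted p = 0.0181 by edgeR's quasi-likelihood test) and in neither other comparison. In early minus terrestrial the log2 change of the summed count was 0.02 ± 0.09 (adjusted p = 0.843, same test). The lower summed FPKM of early libraries was thus not seen in the summed counts. CL1138 had 36.3, 26.7 and 22.8 FPKM in late, 28.1, 21.0 and 21.1 in early, and 28.3, 29.3 and 30.1 in terrestrial libraries. Its Contig5 (5728 bases) held 23.8, 21.3 and 26.3% on average, no contig's share moved by more than 5.05 points, and none of its 9 tested contigs was called. Its usage was called in late minus terrestrial without terrestrial 3 (adjusted p = 0.0394, diffSpliceDGE) and not with all libraries (0.646). CL985 kept its shares between the hydroponic stages, where the largest move was 0.82 points, while against terrestrial roots usage was called with moves of 4.51 points in late and 4.89 points in early (adjusted p = 1.3e-08 and 1.73e-10, diffSpliceDGE).

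In CL452 and CL289 shares varied widely between replicates. CL452, with 14 contigs of 2220 to 2564 bases and no whole count, had 9.07, 9.81 and 7.26 summed FPKM in late, 12.5, 10.7 and 11.3 in early, and 12.9, 12.1 and 12.6 in terrestrial libraries. Contig1 led everywhere, with 48.1 ± 2.4% in late, 39.7 ± 13.7% in early and 64.0 ± 11.46% in terrestrial libraries (SD, n = 3 each), and usage was called in no comparison with all libraries. In early minus terrestrial it had an adjusted p of 0.118 by diffSpliceDGE, against 0.0231 without early 1, 0.0449 without terrestrial 1 and 0.0247 by limma voom, and voom also called late minus early (adjusted p = 0.034). Its sum was lower in late than in terrestrial (log2 change -0.43 ± 0.13, adjusted p = 0.0157) and early roots (-0.53 ± 0.13, adjusted p = 0.0207) by edgeR's quasi-likelihood test. CL289, with 10 contigs, had 6.52, 13.0 and 11.8 FPKM in late, 18.3, 14.5 and 12.3 in early, and 13.7, 7.02 and 18.1 in terrestrial libraries. Contig4 of CL289 (5250 bases) had 2.75, 4.27 and 0 FPKM in late, 4.04, 3.86 and 0.06 in early, and 0.03, 3.40 and 4.36 in terrestrial libraries, so it was near absent from 1 library of each group.

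Share profiles were compared library by library with the sum of absolute share differences divided by 2. In 10 of 39 clusters for late minus terrestrial, 3 of 40 for late minus early and 15 of 39 for early minus terrestrial, every pair of libraries from different groups was farther apart than any pair within a group, or 25.6, 7.5 and 38.5%, beside 7.7, 2.78 and 12.4% of all clusters. The effective number of contigs did not overlap between groups in 14, 16 and 19 clusters. It was higher in late than in terrestrial libraries in 9 and lower in 5 (23.1 and 12.8%, beside 14.3 and 10.9%). It was higher in late than in early libraries in 9 and lower in 7 (22.5 and 17.5%, beside 9.53 and 6.7%), and higher in early than in terrestrial libraries in 12 and lower in 7 (30.8 and 17.9%, beside 14.7 and 14.0%). For neither measure were the 40 compared with clusters of like size.

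Members whose counts were whole in every library that listed them carry no sign of divided reads in their own counts. There were 22, of which 13 could be tested: 7 were higher and 1 lower in late against terrestrial roots, 2 higher and 1 lower in late against early roots, and 6 higher and 2 lower in early against terrestrial roots. Of all 17439 tested contigs with whole counts wherever listed, 30.2, 8.89 and 31.6% were higher and 25.8, 6.19 and 33.1% lower in these comparisons. Among these 13, Contig7 of CL2730 was called for its usage against terrestrial roots in both stages. Contig5 of CL77 (416 bases) was called in late minus early, with 1, 3 and 5 counts in late, 18, 14 and 20 in early, and 2, 5 and 5 in terrestrial libraries. Usage sets a contig against its cluster, and only 23.3% of listed counts in CL2730 and 18.5% in CL77 were whole. The late minus early usage call of CL77 was lost with at least 50 counts in 3 libraries (adjusted p = 0.843, diffSpliceDGE). It was also lost without contigs under 500 bases (0.0753), without early 3 (0.0708) and by the Simes test (0.0501).

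At the edge of the selection, CL43 averaged 372 ± 183, 503 ± 108 and 84.0 ± 24.7 summed FPKM in late, early and terrestrial libraries and CL77 87.8 ± 11.8, 89.3 ± 6.1 and 41.1 ± 3.4 (SD, n = 3 each). The first clusters left out, also of 6 contigs, were CL189 with 24.3 ± 2.4, 19.6 ± 0.7 and 27.0 ± 1.1 and CL200 with 21.2 ± 16.3, 0.233 ± 0.23 and 0.997 ± 0.804. They were left out by their number alone, since 28 clusters had 6 contigs and 2 places remained.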

How the data were processed

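Total RNA of ramie roots was isolated with Trizol, per the labels' protocols. Per the series' design text, a pool was sequenced on an Illumina instrument and assembled, and the 9 separate libraries were quantified on a BGISEQ-500 instrument. The assembler, aligner and counting program, and whether reads were counted by strand, are not given in the sources used here. Per the file headers, the authors deposited for each library an expected count and an FPKM value per contig, with its length. In the deposited tables an expected count can be fractional. The deposited FPKM values equal expected counts scaled to library size and to a length shortened by about 36.5 bases. No contig has a gene name in the tables, and no sequence was used here.

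The 40 clusters, the lists and the named items were chosen with earlier results of these data known. Rounded expected counts went into edgeR 4.0.16 under R 4.3.3 (TMM, filterByExpr with a minimum count of 10, robust quasi-likelihood fit of the 3 groups together, 6 residual degrees of freedom). Tests ran on all contigs, on counts summed per cluster with unclustered contigs kept single, and, with diffSpliceDGE, on contig usage in clusters with at least 2 tested contigs. A call is a Benjamini-Hochberg adjusted p under 0.05 over all features of that test. The SE of a log2 change is its size divided by the square root of F, so it restates the test. Shares, their largest change and the effective number of contigs were computed from FPKM, and permutation tests ran in SciPy 1.17.1. The scripts were tested on simulated counts drawn separately for each contig. No reads were divided among contigs there, so that simulation cannot check usage calls under read sharing. Whether the 3 libraries of a group were separate plants is not stated in the labels, so p-values reflect only the spread among these libraries, possibly a technical one.

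Named clusters were the 5 with the most contigs, the 3 with the largest share change among usage calls per comparison (summed FPKM at least 5), the 2 largest rises and falls of the sum per comparison, the 3 steadiest in share, those with another leading contig in every library of 2 groups, and the 3 highest. Named contigs held at least 10% of such a cluster in some group or were among the 5 largest called changes per direction without overlap. Alternatives covered scaling, filters, contig length, a replicate block, DESeq2 1.42.0, limma 3.58.1 on voom weights and on log2(FPKM + 1) and log2(FPKM + 0.1), the Simes test, shares of counts and each library left out; leaving out late 3 with terrestrial 2, and CL1032 with CL735, was added after seeing the data.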

Additional observations from a re-analysis of the deposited data

Results flagged for a closer look

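In 7 member contigs the change against terrestrial roots had opposite signs at the 2 hydroponic stages, higher in late and lower in early roots, each called by edgeR's quasi-likelihood test, Benjamini-Hochberg adjusted, and the stage difference itself was called. They are 2.56% of the 273 tested members, beside 0.497% of all contigs tested. As the late minus early log2 change, that difference was 2.75 for CL106.Contig5 (adjusted p = 0.00557), 6.22 for CL215.Contig6 (adjusted p = 0.00506), 4.83 for CL235.Contig7 (adjusted p = 0.00327), 2.72 for CL270.Contig1 (adjusted p = 0.00194), 6.01 for CL270.Contig5 (adjusted p = 0.00684), 3.11 for CL270.Contig6 (adjusted p = 0.00239) and 8.78 for CL787.Contig4 (adjusted p = 0.0187). Of the 7, 3 belong to CL270. Both changes against soil use the same 3 terrestrial libraries.

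CL270.Contig1 (1500 bases) had 41.2, 26.2 and 34.5 FPKM in late, 4.63, 6.22 and 3.19 in early, and 13.4, 16.7 and 15.7 in terrestrial libraries. CL106.Contig5 (1740 bases) had 11.3, 7.52 and 5.98 FPKM in late, 1, 1.2 and 1.16 in early, and 1.8, 4.98 and 3.2 in terrestrial libraries, and none of its counts was whole. In both, the 3 groups did not overlap. CL215.Contig6 had 29.1, 46.4 and 21.8 counts in late, 0, 1 and 0 in early, and 12.3, 3 and 3.04 in terrestrial libraries. CL787.Contig4 had 35.9, 73.2 and 45.5 counts in late libraries, none in early libraries and 0, 14.2 and 14.3 in terrestrial libraries. Its fitted 8.78 depends on the prior count. Against a floor of 3 counts over the group it was at least 59.7-fold higher in late than in early roots. Its late counts were fractional, so this fold holds only for the division of reads behind the deposited counts.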

How the results depend on the processing

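In alternatives that left out no single library, the counts over the 40 clusters stayed within 1.5 times, and the library shares within 1 SD, in 192 of 204 values. In late minus early, contigs lower in late numbered 50 by DESeq2 and 62 without late 3 and terrestrial 2 together, in place of 32. Summed clusters lower in late numbered 5 with library totals alone, 4 on log2(FPKM + 1) and 4 on log2(FPKM + 0.1), in place of 10. With contigs whole in fewer than 5 libraries left out, usage calls numbered 0, 1 and 0 in place of 19, 11 and 23; only 5 clusters could be tested, with fewer contigs each, and of these 2, 2 and 1 were called with all contigs. The part of a library's listed level in the 40 clusters differed by 1.49 percentage points (late minus terrestrial) and 1.79 (early minus terrestrial) on FPKM, in place of 1.14 and 1.51, and by 0.282 and 0.511 on counts without CL1032 and CL735. Beyond the fewer clusters and contigs there, the cause was not tested.

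With each library left out in turn, contigs called numbered 93 to 103 higher and 32 to 40 lower in late minus terrestrial, 19 to 39 and 12 to 54 in late minus early, and 90 to 102 and 43 to 57 in early minus terrestrial. Summed clusters numbered 15 to 17 and 10 to 13, 4 to 7 and 5 to 12, and 15 to 17 and 12 to 15, and usage calls 17 to 19, 8 to 15 and 20 to 23. Not every sum was followed through the alternatives in every comparison. Among uncalled sums that were, some log2 changes turned sign on log2(FPKM + 1) and log2(FPKM + 0.1). In early minus terrestrial they were -0.178 and -0.18 for CL106, -0.136 and -0.138 for CL235, and -0.181 and -0.181 for CL486. With library totals CL486 was at -0.06 there. CL7, not followed in that comparison, had a log2 change of 0.02 by summed counts. Its early libraries all lay below the terrestrial ones on summed FPKM. In late minus terrestrial the turned values were -0.222 and -0.223 for CL270, -0.006 and -0.006 for CL486, and 0.364 and 0.374 for CL508. With each library left out CL270 ran from -0.018 (without terrestrial 2) to 0.189 (without terrestrial 1), and was at -0.041 without late 3 and terrestrial 2 together. The share of CL215.Contig1 moved by -0.302 points in late minus terrestrial with contigs under 500 bases left out.

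No pairing by replicate number was visible: the deviations of same-numbered libraries from their group means correlated by -0.111 to 0.146 across contigs. Differently numbered libraries gave -0.182 to 0.136. With 3 libraries per group these values cannot decide whether the libraries were paired. With the number as a replicate block, usage was called in 19, 10 and 21 clusters, sums in 17 higher and 13 lower, 6 and 11, and 15 and 15, and contigs in 98 and 37, 25 and 26, and 94 and 54. Under it, usage of CL112 was called against terrestrial roots (adjusted p = 0.0353 in late and 0.00667 in early, diffSpliceDGE). Low counts limit the tests: 62 of the 335 contigs could not be tested, and an unlisted contig cannot be told from one under the counting limit.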

Other observations

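Some clusters outside the naming rule showed share changes in many libraries, and those given here were chosen after their values were seen. In CL257 the short Contig7 (238 bases) had 5.37, 8.07 and 7.01 FPKM in late, 0.42, 1.69 and 1.22 in early, and 56.5, 31.0 and 45.7 in terrestrial libraries, which is 5.1 ± 1.7, 0.8 ± 0.4 and 35.4 ± 1.9% of its cluster (SD, n = 3 each). Usage of CL257 was called in early minus terrestrial (adjusted p = 2.74e-06, diffSpliceDGE). That call was lost with contigs under 500 bases, Contig7 among them, left out (adjusted p = 0.13). In late minus terrestrial the call held in every alternative in which it could be tested (adjusted p up to 0.00161). In CL856 all 8 contigs were called higher at both hydroponic stages than in soil by edgeR's quasi-likelihood test, yet Contig1 (1343 bases) held 13.2 ± 1.5% in late, 12.2 ± 0.6% in early and 26.4 ± 1.1% in terrestrial libraries. Contig7 of CL856 (1519 bases) had 8.66, 16.6 and 29.0 FPKM in late, 55.1, 54.0 and 53.5 in early, and 2.50, 1.35 and 2.07 in terrestrial libraries, with no overlap between groups.

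In CL4046, the fourth highest cluster, the sum rose in hydroponic roots while Contig2 (1788 bases) had 80.8, 104 and 100 FPKM in late, 125, 141 and 127 in early, and 179, 172 and 168 in terrestrial libraries. That contig held 8.2 ± 0.6, 6.1 ± 0.5 and 18.7 ± 1.1% of the cluster. In CL1058 Contig4 (1001 bases) held 26.8 ± 9.1% in late, 28.1 ± 4.1% in early and 5.2 ± 3.0% in terrestrial libraries (SD, n = 3 each). In CL77 Contig4 (1856 bases) held 50.7 ± 1.1, 43.0 ± 5.5 and 65.2 ± 2.0%, and the short Contig6 (285 bases) 24.2 ± 1.3, 26.0 ± 2.9 and 8.8 ± 2.1%.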
